A study of Mus musculus with 32 samples.

Results

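The Gimap family (GTPases of immunity-associated proteins) was followed through 8 fractions of mouse bone marrow hematopoietic stem and progenitor cells at 2 ages. Its members were taken by symbol from the table of raw gene counts, where the rows Gimap1, Gimap3, Gimap4, Gimap5, Gimap6, Gimap7, Gimap8 and Gimap9 made up 8 of 24421 genes. All 8 passed the filter on low counts, which left 14154 genes for testing. Transcripts of the family were abundant in hematopoietic stem cells (HSCs), multipotent progenitors (MPPs) and common lymphoid progenitors (CLPs), and scarce in granulocyte-macrophage progenitors (GMPs) and megakaryocyte-erythrocyte progenitors (MEPs). With age, 5 members fell in the lymphoid-primed MPP4 (16.6% of all genes changed there) and 5 in MEPs (21.0%). In HSCs (5.53%), MPP1 (6.95%) and CLPs (10.7%) edgeR called 0 members, and DESeq2 called 2, 1 and 2.

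Gimap proteins are GTP-binding proteins anchored mainly to intracellular membranes such as the endoplasmic reticulum, mitochondria, lysosomes and autophagosomes. The family is best known in lymphocytes, where its members influence survival, and loss of Gimap5 in rodents causes T cell lymphopenia and disturbs the quiescence of stem cells. The genes lie next to each other in vertebrate genomes and arose by duplication, so that members resemble each other in sequence.

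The cells came from female C57BL/6 mice aged 10 weeks (Young) or 20 months (Aged), with no genetic change or treatment. HSC, MPP1, MPP2 (megakaryocyte/erythroid-biased), MPP3 (myeloid-biased), MPP4 (lymphoid-primed), GMP, MEP and CLP fractions were sorted by surface antigens, with 2 libraries for each fraction and age and 32 in all. The study describes marrow pooled by age in one place and independent duplicates in another, so p-values measure the spread between these libraries, which may be technical. Libraries held 11237384 to 17723245 counts, and levels are given as CPM, the count scaled to the library total. Log2 differences use a further scaling between libraries (TMM, factors of 0.807 to 1.11), so they need not match percentages of CPM. A floor of 3 counts corresponded to 0.169 to 0.267 CPM, and it covers counting error only. Some sorting antigens were read as RNA: Flt3 was highest in Young MPP4 (1127 CPM), Il7r in Young CLPs (151 CPM), Fcgr3 in Young GMPs (391 CPM) and Slamf1 in Young HSCs (58.7 CPM). The rest of the 8 listed antigens are not described, and Il7r in MEPs is given below. The MEP libraries stood apart. Summed CPM of 12 B lineage markers was 263 to 274 in Young MEPs and 2.31 to 2.64 in Aged MEPs.

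The 8 genes occupied 123.6 kb of chromosome 6, from base 48647234 to 48770851 of GRCm38 (mm10) in the GENCODE M21 annotation. Gimap8 (ENSMUSG00000064262.7, 48647234 to 48660875) opened the cluster, followed on the plus strand by Gimap9 (ENSMUSG00000051124.6, 48676129 to 48679114) and Gimap4 (ENSMUSG00000054435.16, 48684549 to 48692060). Gimap6 (ENSMUSG00000047867.11, 48701582 to 48708225) lay on the minus strand. Gimap7 (ENSMUSG00000043931.10, 48718621 to 48724636), Gimap1 (ENSMUSG00000090019.5, 48739054 to 48743795) and Gimap5 (ENSMUSG00000043505.8, 48746197 to 48754210) came next on the plus strand, and Gimap3 (ENSMUSG00000039264.9, 48764464 to 48770851) closed the cluster on the minus strand. The count table held 0 other genes between them.

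Promoter windows of 250 bases before the start were read from RefSeq (GRCm38.p6), where all 8 symbols matched. The windows are printed for 4 members whose RNA patterns differed: Gimap6 and Gimap8, which fell with age in MPP4, Gimap5, which fell in MPP4 and not detectably in HSCs, and Gimap9, the member with the highest level in GMPs and MEPs. Capitals mark the matches to the motifs searched, on either strand, and each window is given 5′ to 3′ on the gene's own strand.
Gimap6 (chr6:48708245-48708494, minus strand): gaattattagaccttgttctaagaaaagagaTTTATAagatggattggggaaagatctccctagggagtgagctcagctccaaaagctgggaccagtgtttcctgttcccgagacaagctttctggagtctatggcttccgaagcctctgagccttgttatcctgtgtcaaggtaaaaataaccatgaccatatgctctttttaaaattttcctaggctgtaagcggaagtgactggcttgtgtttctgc
Gimap8 (chr6:48646984-48647233, plus strand): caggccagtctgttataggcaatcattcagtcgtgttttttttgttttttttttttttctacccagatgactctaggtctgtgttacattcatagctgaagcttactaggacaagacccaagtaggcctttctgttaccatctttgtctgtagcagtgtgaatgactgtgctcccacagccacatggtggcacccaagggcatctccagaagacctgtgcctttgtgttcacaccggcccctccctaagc
Gimap5 (chr6:48745947-48746196, plus strand): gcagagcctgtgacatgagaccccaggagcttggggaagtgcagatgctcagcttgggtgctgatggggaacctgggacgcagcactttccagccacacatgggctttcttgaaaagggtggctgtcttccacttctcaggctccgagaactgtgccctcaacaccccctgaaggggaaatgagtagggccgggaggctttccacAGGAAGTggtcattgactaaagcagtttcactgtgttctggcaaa
Gimap9 (chr6:48675885-48676134, plus strand): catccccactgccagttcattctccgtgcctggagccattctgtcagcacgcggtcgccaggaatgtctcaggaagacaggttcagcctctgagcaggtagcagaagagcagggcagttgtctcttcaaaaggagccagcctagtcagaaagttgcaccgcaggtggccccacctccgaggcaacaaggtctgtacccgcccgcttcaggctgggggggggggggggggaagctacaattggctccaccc

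The windows of the members held few of the motifs that were searched. Searched on both strands were AGATAA for GATA factors, AGGAAGT for ETS factors, TGTGGTT for RUNX factors, TTCCNGGAA for STAT factors, the E-box CAGCTG, the IRF motif, TATAAA for the TATA box and the CRE motif TGACGTCA. Gimap5 held the ETS letters 45 bases before its start, which 7.69% of all 32851 RefSeq windows also held. Gimap6 held TATA letters on the opposite strand 219 bases before its start, as did 12.4% of all windows. The remaining motifs, found in 9.99% (GATA), 4.40% (RUNX), 0.913% (STAT), 13% (E-box), 2.98% (IRF) and 1.55% (CRE) of all windows, matched none of the windows of the 8 members. GC content was 43.6% in the Gimap6 window, 46.8% in Gimap8, 55.6% in Gimap5 and 61.2% in Gimap9.

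The summed level of the 8 genes was highest in HSCs at both ages. It was 920 ± 14.3 CPM (SD, n = 2) in Young HSCs and 771 ± 7.97 CPM in Aged HSCs. Young MPP1 held 682 ± 12.6 CPM, MPP2 469 ± 0.271, MPP3 579 ± 20.4 and MPP4 527 ± 24.9 CPM, and Young CLPs held 409 ± 8.5 CPM. It dropped to 15.2 ± 1.33 CPM in Young GMPs and 55.5 ± 4.67 CPM in Young MEPs. The GMP and MEP libraries thus lay far below all stem, multipotent and lymphoid ones. Aged MPP1 held 539 ± 6.73 CPM, MPP2 354 ± 16, MPP3 358 ± 13.3 and MPP4 250 ± 2.05 CPM. Aged CLPs held 378 ± 31.2, Aged MEPs 30.7 ± 1.19 and Aged GMPs 9.86 ± 0.564 CPM. MPP4 therefore sat below MPP1, MPP2, MPP3 and CLPs in aged marrow, whereas in young marrow it sat above MPP2 and CLPs.

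**Figure D1:**
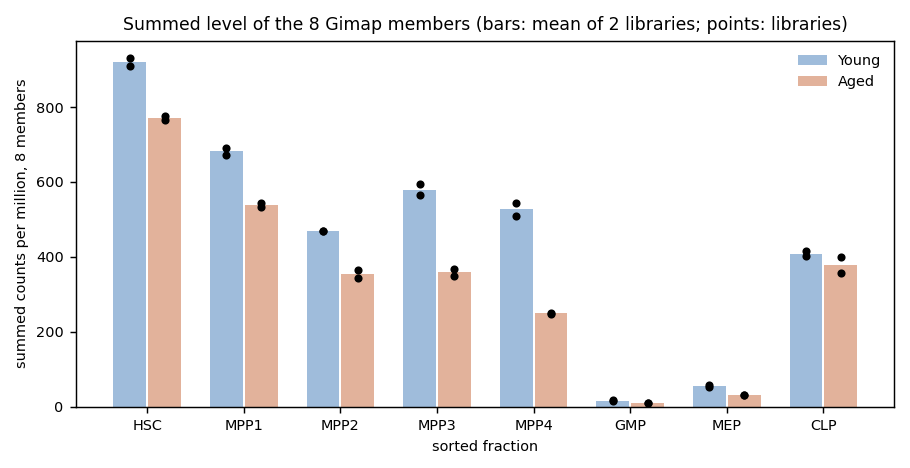
Summed level of the 8 Gimap genes in CPM (y axis, from 0) in each fraction (x axis) of Young and Aged mice. Points are libraries and bars are means of 2. Young HSCs stand at 920 CPM, and MPP4 at 527 CPM in Young against 250 CPM in Aged mice.

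The sum was carried by few members. In Young HSCs Gimap6 made up 43.0%, Gimap1 29.7% and Gimap5 12.5% of the family's counts. In GMPs and MEPs the make-up differed, and Gimap9 held 45.1% of the family's counts in Young GMPs, 51.1% in Aged GMPs, 41.8% in Young MEPs and 53.0% in Aged MEPs, against 2.47% to 9.04% in the other groups. Gimap1 went from 21.5% of the family's counts in Young MEPs to 6.00% in Aged MEPs. Per kilobase of merged exons, Gimap6 led in Young HSCs with 113 CPM per kb, followed by Gimap1 with 88.9 and Gimap5 with 27.6 CPM per kb. The order of the leading pair depended on the length used, since with the longest transcript Gimap1 stood at 169 and Gimap6 at 124 CPM per kb. Gimap9 was the highest member per kilobase in Young GMPs, at 4.18 CPM per kb of merged exons, with either length.

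**Figure D2:**
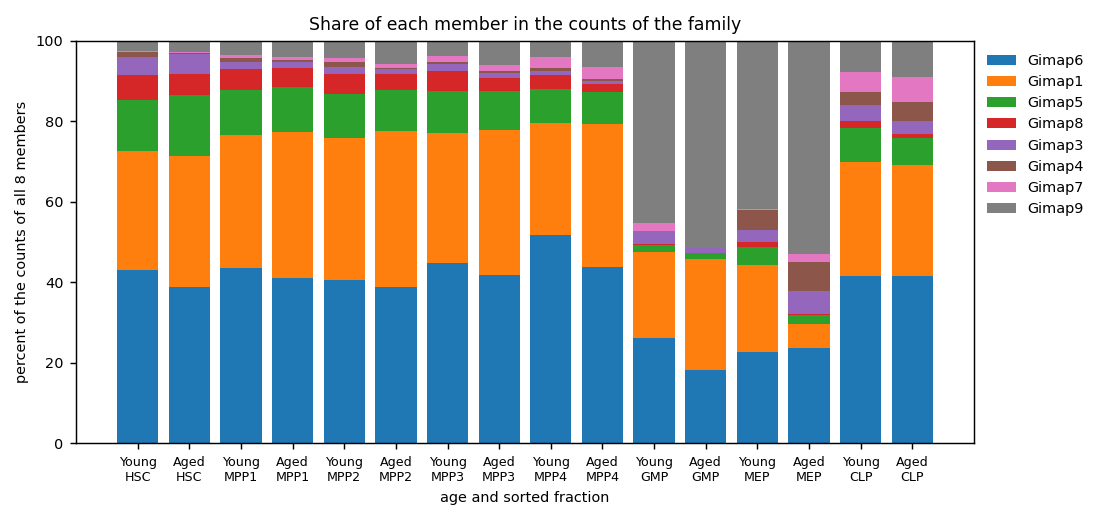
Share of the family's counts (y axis, percent, from 0 to 100) held by each of the 8 genes in the 16 groups of fraction and age (x axis), with the counts of 2 libraries summed. Gimap6 fills 43.0% of the Young HSC bar, and Gimap9 fills 45.1% of the Young GMP bar and 41.8% of the Young MEP bar.

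Gimap6, which acts in autophagy and binds an Atg8 family protein, was the member with the highest count. Its level was 393 and 397 CPM in the Young HSC libraries and 308 and 293 CPM in the Aged HSC libraries. The order in young marrow was HSC, MPP1, MPP4, MPP3, MPP2, CLP, MEP and GMP, in which the MPP4 and MPP3 libraries overlapped. In aged marrow the order was HSC, MPP1, CLP, MPP3, MPP2, MPP4, MEP and GMP, in which the CLP and MPP3 libraries overlapped. MPP4 thus stood at the third place in young and at the sixth in aged marrow. Gimap1 (needed for mature B and T cells), Gimap5 (a lysosomal member needed for lymphocyte survival), Gimap8 (a member with several GTPase domains) and Gimap3 (a paralog of Gimap5) were likewise highest in HSCs at both ages. Gimap3 differed from them in that CLPs came next, with 14.8 and 15.9 CPM in Young CLPs against 39.6 and 42.5 CPM in Young HSCs and 5.09 and 5.21 CPM in Young MPP4.

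Gimap4, Gimap7 and Gimap9 had their highest mean in CLPs at both ages. Gimap7, a GTPase that can stimulate other family members, measured 2.40 and 4.08 CPM in Young HSCs, 12.2 and 17.0 CPM in Young MPP4, and 20.8 and 20.3 CPM in Young CLPs. In aged marrow it measured 1.02 and 1.31 CPM in HSCs, 6.15 and 8.08 CPM in MPP4, and 20.9 and 25.9 CPM in CLPs. From HSCs to MPP4 and CLPs Gimap7 thus ran in the other direction than the members that were highest in HSCs. Like those members, Gimap7 was lower in GMPs and MEPs than in HSCs, and its own level there was near 0. Gimap9 was the flattest member, with 23.0 and 22.5 CPM in Young HSCs, 20.4 and 22.6 CPM in Young MPP4, 22.1 and 24.6 CPM in Young MEPs and 34.7 and 28.4 CPM in Young CLPs. In its young order 5 of 7 neighbouring fractions overlapped. Gimap9 was lower in GMPs, at 7.25 and 6.49 CPM in Young and 5.39 and 4.69 CPM in Aged libraries. Gimap4, which has been tied to T cell death, was not measured reproducibly: the Young HSC libraries held 263 and 40 counts and the Young CLP libraries 22 and 324 counts. The median ratio between its duplicate counts was 2.60 over 14 groups, against 1.09 to 1.24 for the other members, and no Gimap4 difference described below passed the edgeR test.

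**Figure D3:**
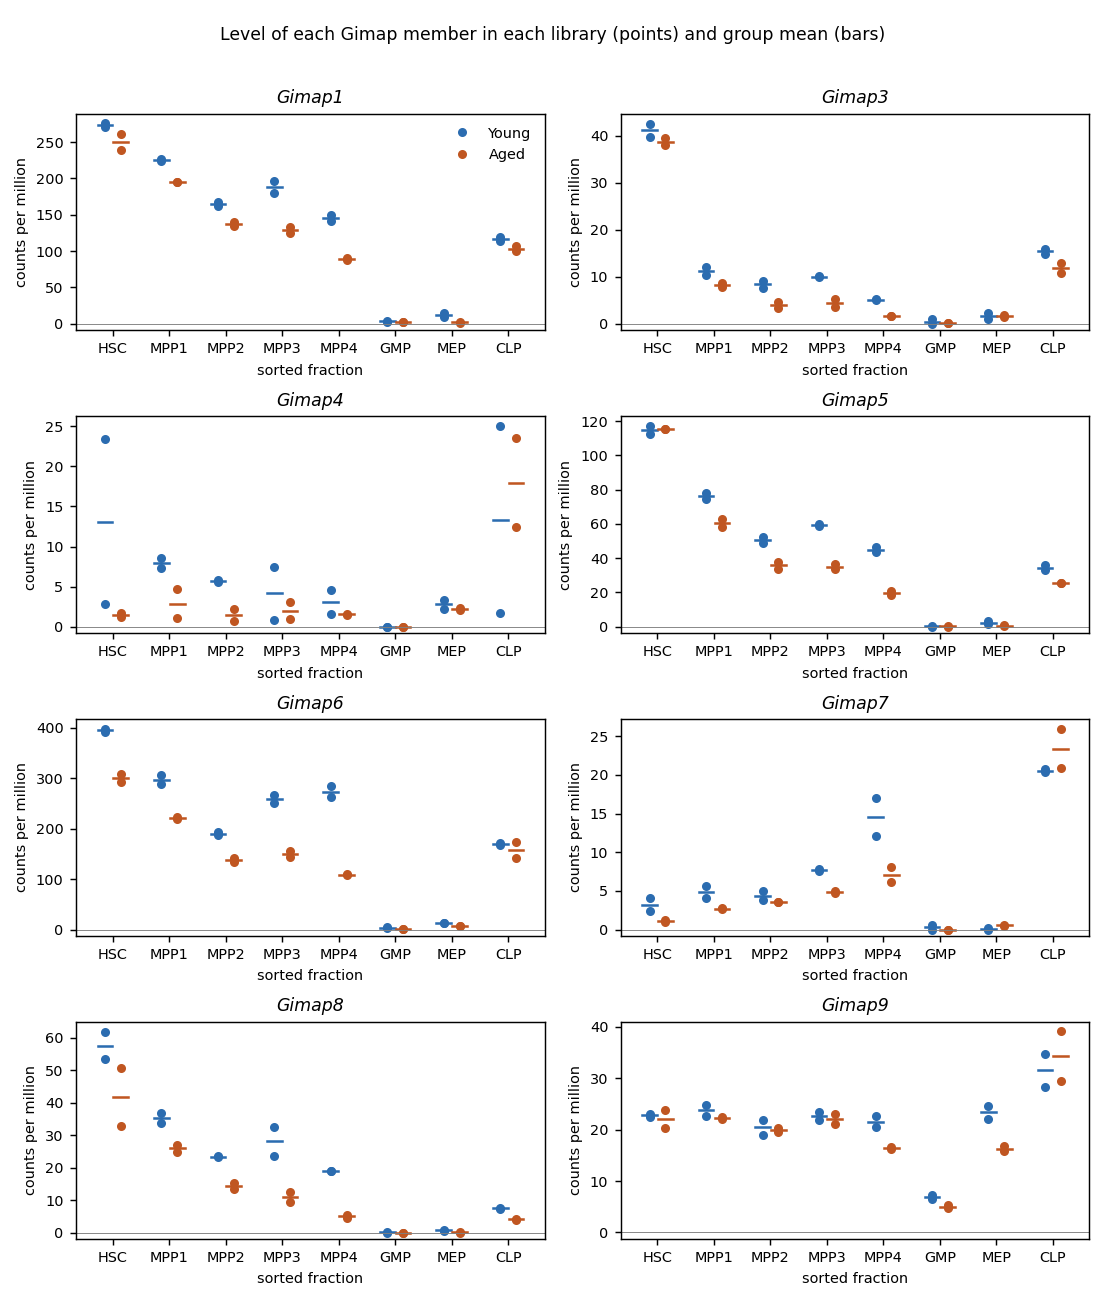
Level of each Gimap gene in CPM (y axis, linear, its own range in each panel) in the 8 fractions (x axis), with each Young and Aged library as a point and group means as short lines. Gimap6 libraries lie between 1.79 and 397 CPM, Gimap7 rises toward CLPs, and Gimap9 stays between 4.69 and 39.1 CPM.

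Steps between neighbouring fractions were tested within each age, with an adjusted p under 0.01 as the threshold (edgeR quasi-likelihood test, Benjamini-Hochberg over all genes). Since steps share groups, their values are given side by side only. Shares of genes called, here and below, count rises and falls together unless stated. In bulk RNA, fewer cells of a type and less RNA per cell cannot be told apart. From HSC to MPP1, 2 members fell in young marrow, where 15.0% of all genes were called, and 3 in aged marrow, where 23.0% were. Gimap3 fell by 1.91 (log2, SE 0.33) in young and by 2.26 (SE 0.33) in aged marrow, and Gimap6 by 0.44 and 0.47. Gimap5 fell by 0.96 in aged marrow, and its young difference was -0.61 with an adjusted p of 0.0265. These counts rested on few libraries: leaving out any 1 of the 4 left 1 member called in young marrow, and in aged marrow 3 were called without Aged HSC replicate 2, 2 without Aged HSC or MPP1 replicate 1, and 1 without Aged MPP1 replicate 2.

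Between MPPs the counts depended on the step. From MPP1 to MPP2 Gimap6 alone was called, lower by 0.60 in young marrow (6.93% of genes called) and by 0.63 in aged marrow (5.69%), the latter lost without Aged MPP2 replicate 1, which left 0 called. From MPP1 to MPP3, 0 members passed in young marrow with edgeR (5.61% of genes called), 0 had an unadjusted p under 0.05 and 1 passed with DESeq2. In aged marrow Gimap1, Gimap6 and Gimap8 fell by 0.53, 0.49 and 1.17 (8.39% of genes called), but 0 passed without Aged MPP1 replicate 1 and 1 without any other of the 4 libraries. From MPP1 to MPP4, 2 young members fell (Gimap1 by 0.56 and Gimap8 by 0.84) and Gimap7 rose by 1.64 (adjusted p = 0.00362), with 13.1% of genes called. Without either Young MPP1 library none of these passed, and without either Young MPP4 library 1 did. In aged marrow 5 members fell in this step (Gimap1, Gimap3, Gimap5, Gimap6 and Gimap8) and Gimap7 rose by 1.49, with 19.6% of genes called. Without any 1 of the 4 libraries, 5 members were called. The aged drops were 1.02 for Gimap1, 2.24 for Gimap3, 1.51 for Gimap5, 0.91 for Gimap6 and 2.28 for Gimap8.

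The family nearly disappeared on the path to GMPs. From MPP3 to GMP 7 members fell at each age, with 57.9% of genes called in young (29.9% lower) and 43.6% in aged marrow (22.2% lower). Gimap6 measured 252 and 266 CPM in Young MPP3 and 5.06 and 2.93 CPM in Young GMPs, so that it fell by 5.63 (log2, SE 0.14). Gimap1 fell by 5.47 and Gimap9 by 1.33, the smallest drop among the members called. From MPP2 to MEP 6 members fell in young marrow (63.9% of genes called) and 5 in aged marrow (60.4%). Gimap9 did not follow them: it differed by 0.36 (adjusted p = 0.0163) in young and by -0.16 in aged marrow. Gimap6 fell by 3.73 in young and by 4.12 in aged marrow. Gimap1 fell by 3.63 in young and fell by 6.09 in aged marrow.

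CLPs were compared with MPP4. In young marrow Gimap3 rose by 1.73 and Gimap9 by 0.70, while Gimap6 fell by 0.53 and Gimap8 by 1.18, with 41.8% of genes called. In aged marrow 4 members rose (Gimap3 by 2.96, Gimap6 by 0.61, Gimap7 by 1.80 and Gimap9 by 1.14) and 0 fell, with 40.6% of genes called. Gimap6 was thus lower in CLPs than in MPP4 in young marrow and higher in aged marrow.

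The effect of age was tested next in each fraction. Every member called with age was lower in Aged libraries. In MPP4, 5 of 8 members fell, where 16.6% of all genes were called in either direction and 6.29% were called lower. The median difference of the members was -1.03 (log2) against -0.02 over all genes. All 8 members had a value below 0. Gimap6 measured 263 and 284 CPM in Young and 108 and 110 CPM in Aged MPP4. The Aged libraries lay at 39.9% of the Young mean in CPM, with no overlap. TMM factors were 1.07 and 1.05 in Young and 0.999 and 0.998 in Aged MPP4, so the fall is smaller after that scaling. The scaled difference was -1.24 (log2, SE 0.10, adjusted p = 1.43e-08).

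Gimap8 had the largest fall in MPP4 among the members called. It measured 18.8 and 18.8 CPM in Young and 5.34 and 4.55 CPM in Aged MPP4, and aged levels were 26.2% of young. The fall was 1.84 (log2, SE 0.24, adjusted p = 5.44e-06). Gimap5 went from 43.6 and 46.3 CPM to 18.6 and 20.8 CPM, which is 43.8% of young (fall of 1.10, SE 0.21, adjusted p = 5.06e-04). Gimap1 went from 142 and 149 CPM to 90.5 and 87.8 CPM, which is 61.2% of young (fall of 0.62, SE 0.12, adjusted p = 6.06e-04). Gimap3 was the weakest of the 5, at 5.09 and 5.21 CPM in Young and 1.63 and 1.59 CPM in Aged MPP4 (fall of 1.59, SE 0.42, adjusted p = 0.00688). Leaving out each library in turn kept the calls of Gimap6 and Gimap8. The Gimap1 call was lost without Aged MPP4 replicate 2 (adjusted p = 0.0122), the Gimap5 call without Aged MPP4 replicate 1 (0.0136) and the Gimap3 call without any 1 of the 4 libraries (0.0292 to 0.0607), which left 3 to 4 members called.

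Markers of other cells were read beside this result, in a fraction where 16.6% of all genes were called with age. Summed CPM of the T cell markers was 137 to 152 in Young and 107 in Aged MPP4, with Cd3e, Cd3g and Cd2 at 0 in both, and 1 of 14 tested fell. The macrophage sum spanned 92.3 to 97.1 CPM in the Young and 58.8 to 59.5 CPM in the Aged libraries, with 5 of 8 markers lower. The endothelial sum spanned 201 to 224 CPM and 146 to 147 CPM, with 2 of 10 lower, and the B lineage sum 793 to 849 CPM and 1096 to 1137 CPM, with 1 of 12 higher. Their part in the Gimap result was not tested.

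**Figure D4:**
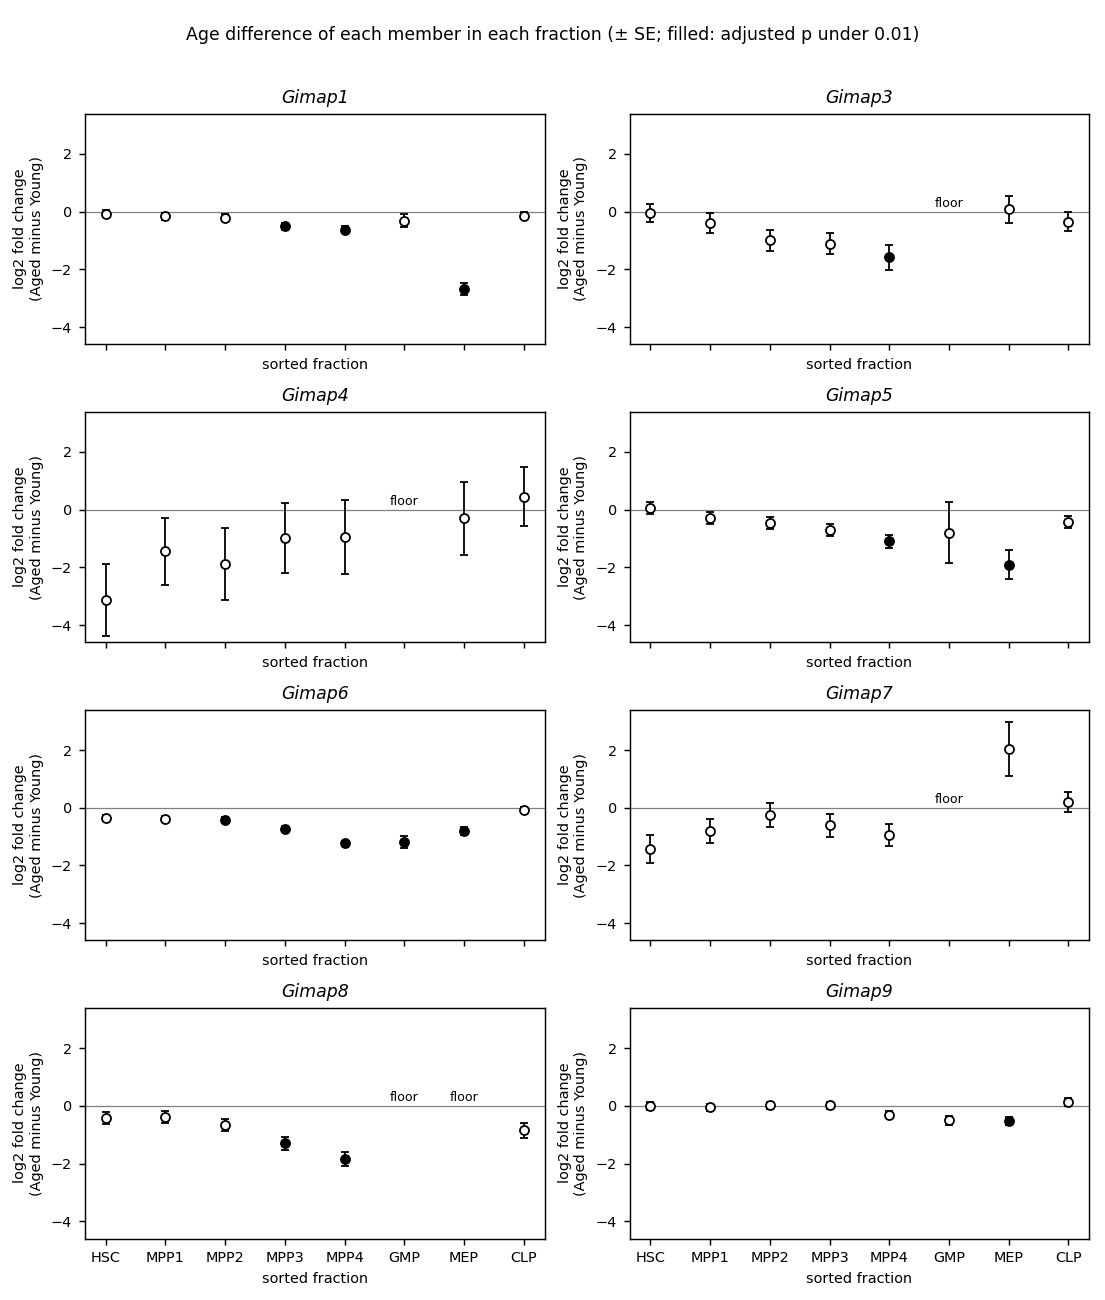
Aged minus Young difference (log2 fold change, y axis, with its standard error) of each Gimap gene in each fraction (x axis), with filled points for adjusted p under 0.01 and the word floor where a group lay at or under 3 counts. In MPP4 the filled points are Gimap1, Gimap3, Gimap5, Gimap6 and Gimap8, and HSC, MPP1 and CLP hold none.

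The other multipotent fractions lay between. In HSCs edgeR called 0 members, where 5.53% of all genes were called, although 4 had an unadjusted p under 0.05 and DESeq2 called 2. The edgeR difference of Gimap6 was -0.35 (95% confidence interval -0.56 to -0.14, adjusted p = 0.0252). Gimap5 measured 112 and 117 CPM in Young and 115 and 116 CPM in Aged HSCs, a difference of 0.06 (95% confidence interval -0.36 to 0.47). In MPP1 edgeR called 0 members (6.95% of genes called), 1 had an unadjusted p under 0.05, and DESeq2 called 1. In MPP2 Gimap6 was called at -0.42 (adjusted p = 0.00687, 7.94% of genes called), a call lost without any 1 of the 4 libraries (adjusted p = 0.0404 to 0.11). It measured 193 and 188 CPM in Young and 134 and 142 CPM in Aged MPP2.

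In MPP3, 3 members fell, with 14.1% of genes called. Gimap6 went from 252 and 266 CPM to 144 and 156 CPM, a fall of 0.74 (adjusted p = 1.57e-05). Gimap8 went from 32.5 and 23.7 CPM to 12.6 and 9.38 CPM, a fall of 1.31 (adjusted p = 1.41e-04). Gimap1 fell by 0.50 (adjusted p = 0.00429), a call lost without any 1 of the 4 libraries (0.0178 to 0.0801). Markers of other cells were lower in the same libraries: 6 of 8 macrophage markers (sum of 169 to 183 CPM in Young and 60.1 to 63.3 CPM in Aged MPP3), 5 of 8 neutrophil markers (4796 to 5044 and 2245 to 2270 CPM), 4 of 7 erythroid markers (211 to 357 and 30.0 to 33.0 CPM), 4 of 10 endothelial markers (355 to 368 and 209 to 238 CPM) and 3 of 12 B lineage markers, of which 1 was higher. Their part in the Gimap result was not tested. As a share of the young level, aged Gimap6 was thus 76.1% for HSCs, 74.4% for MPP1, 72.3% for MPP2, 58.1% for MPP3 and 39.9% for MPP4. Averaged over the 4 MPPs, Gimap1, Gimap3, Gimap5, Gimap6 and Gimap8 fell, by 0.38, 1.02, 0.64, 0.69 and 1.05, with 36.7% of genes called. Gimap7 was at -0.65 with an adjusted p of 0.0103, and it passed with DESeq2 (adjusted p = 1.59e-05), with DESeq2 size factors, without the filter on low counts, on the compared libraries alone, without the MEP libraries and without Young MPP4 replicate 1. Gimap9 was at -0.08, with a 95% confidence interval of -0.22 to 0.06.

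Whether the effect of age differed between fractions was tested as a difference of differences. The comparisons of MPP4 with HSCs, MPP1 and CLPs were added after the levels had been seen. Relative to HSCs, the effect in MPP4 was lower by 0.89 for Gimap6 (SE 0.14, adjusted p = 3.67e-04) and by 1.42 for Gimap8 (SE 0.31, adjusted p = 0.00601), with 3.20% of genes called. The Gimap6 call was kept without any 1 of the 8 libraries, and the Gimap8 call was lost in 7 of 8 cases (adjusted p = 0.017 to 0.0551), the exception being Aged HSC replicate 2. Relative to MPP1, Gimap6 differed by -0.85 (SE 0.14, adjusted p = 0.00334), with 0.233% of genes called. This call was kept only without Young MPP4 replicate 1 and otherwise lost (0.0158 to 0.0385). The mean of the MPPs against HSCs gave 0 members called by edgeR (3.09% of genes called), with 5 at an unadjusted p under 0.05, and 4 called by DESeq2.

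In CLPs edgeR called 0 members with age, where 10.7% of genes were called, 1 had an unadjusted p under 0.05 and DESeq2 called 2. Gimap6 measured 169 and 171 CPM in Young and 141 and 174 CPM in Aged CLPs, which overlap, and the difference was -0.09 (95% confidence interval -0.31 to 0.12). Gimap8 measured 7.40 and 7.55 CPM in Young and 4.21 and 4.00 CPM in Aged CLPs, a difference of -0.84 that missed the threshold (adjusted p = 0.0229). The age effect on Gimap6 was higher in CLPs than in MPP4 by 1.15 (SE 0.14, adjusted p = 3.16e-06, 17.6% of genes called). Against the mean of the MPPs it was higher by 0.60 (SE 0.11, adjusted p = 2.37e-04, 22.7% of genes called). Both calls were kept without any 1 library. In these CLPs the 12 B lineage markers included 7 that were lower with age and the 8 macrophage markers 6 that were lower and 1 that was higher. All 8 neutrophil markers were lower (sum of 1831 to 1865 CPM in Young and 327 to 343 CPM in Aged CLPs), and 5 of 7 plasmacytoid dendritic markers were higher (5789 to 5794 and 8557 to 11300 CPM). Their part in the result was not tested.

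In GMPs Gimap6 alone was called with age, against 19.0% of genes. It measured 5.06 and 2.93 CPM in Young and 1.82 and 1.79 CPM in Aged GMPs, a fall of 1.20 (adjusted p = 1.20e-04). The call was lost without Young GMP replicate 1, where the difference was -0.75 (adjusted p = 0.0399) and Gimap3 was called in its place. Without Young GMP replicate 2, Gimap7 was called as well. Relative to the MPPs 0 members were called by edgeR and 0 by DESeq2 (26.6% of genes called), with 3 at an unadjusted p under 0.05, and 2 (Gimap6 and Gimap7) were called without Young GMP replicate 2.

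In MEPs 5 members fell with age, where 21.0% of genes were called in either direction and 11.8% were called lower. Gimap1 measured 14.8 and 8.73 CPM in Young and 1.78 and 1.90 CPM in Aged MEPs. The Aged libraries stood at 15.6% of the Young mean and did not overlap with them, and Gimap1 fell by 2.68 (log2, SE 0.22, adjusted p = 2.48e-09). Relative to the MPPs the age effect on Gimap1 was lower by 2.30 (SE 0.23, adjusted p = 6.77e-08). Gimap1 was the only member called by edgeR (25.0% of genes called), with 6 at an unadjusted p under 0.05. DESeq2 called 3, adding Gimap5 and Gimap7, and the fit on the compared libraries alone added Gimap9. Gimap7 went the other way, with an edgeR difference of 2.69. It had 4 and 0 counts in Young and 5 and 8 counts in Aged MEPs. With 1 library left out, the Gimap5 difference ran from -1.86 to -0.41. Gimap6 measured 13.1 and 12.3 CPM in Young and 6.76 and 7.75 CPM in Aged MEPs, a fall of 0.80 (adjusted p = 1.33e-04). The calls of Gimap1 and Gimap6 with age were kept without any 1 library. In the fit on the compared libraries alone the Gimap1 call was kept and the Gimap6 call was lost.

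The remaining calls in MEPs were weaker. Gimap5 fell by 1.91 (adjusted p = 0.00558) and was lost without Young MEP replicate 1 (-1.04, adjusted p = 0.19), Aged replicate 1 (0.0662) or Aged replicate 2 (0.0189). Gimap9 measured 22.1 and 24.6 CPM in Young and 16.7 and 15.8 CPM in Aged MEPs, a fall of 0.52 (adjusted p = 0.00470) lost without Young replicate 2 or either Aged library (0.0158 to 0.038). Gimap8 was called (adjusted p = 0.00898) at 0.489 and 0.894 CPM in Young and 0 and 0.165 CPM in Aged MEPs, under the floor of 3 counts in both Aged libraries, and was lost without Young replicate 2 or either Aged library (0.0124 to 0.1). These omissions left 2 to 4 of the 5 members called.

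Other lineages moved in the same MEP libraries, where 21.0% of all genes were called. Of 12 B lineage markers 9 were lower in Aged MEPs, and the defining markers Pax5, Ebf1, Cd79a and Rag1 were at 0 in both Aged MEP libraries. The T cell sum spanned 13.6 to 18 CPM in the Young and 5.52 to 7.59 CPM in the Aged libraries, the macrophage sum 9.97 to 10.2 and 0.356 to 1.73 CPM, and the endothelial sum 73.2 to 89.0 and 68.9 to 70.8 CPM. Il7r, whose product was in the antibody mix used to exclude cells from the sort, went from a mean of 12.8 CPM to 0.295 CPM. The part of these markers in the Gimap differences of MEPs was not tested.

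The genes beside the cluster were read as a local comparison. Of 8 neighbours, 4 on each side and 13545 to 159044 bases away, 6 were tested. None was called with age in MPP1, MPP2, MPP3 or MPP4 taken alone, nor in GMPs or CLPs, where 6.95% to 19.0% of all genes were called. In the mean of the MPPs, where 36.7% of genes were called, 3 of the 6 were: Zfp775 fell by 0.33 and AI854703 fell by 0.47, while Tmem176a rose by 0.26. Tmem176a was higher in Aged HSCs by 0.70, and in MEPs Tmem176b fell by 2.43 and Tmem176a fell by 2.68. In MPP3 and MPP4 taken alone, where Gimap genes fell, the tested neighbours had no call, with 2 of them lower in the mean of the MPPs. Levels of neighbours still moved in MPP4. Gm5111 measured 35.9 and 40.6 CPM in Young and 22.7 and 19.9 CPM in Aged MPP4. AI854703 measured 15.7 and 16.9 CPM in Young and 10.2 and 11.8 CPM in Aged MPP4. Tmem176a went the other way, from 122 and 134 CPM to 139 and 139 CPM. Whether neighbours and Gimap genes differed in their age effect was not tested.

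**Figure D5:**
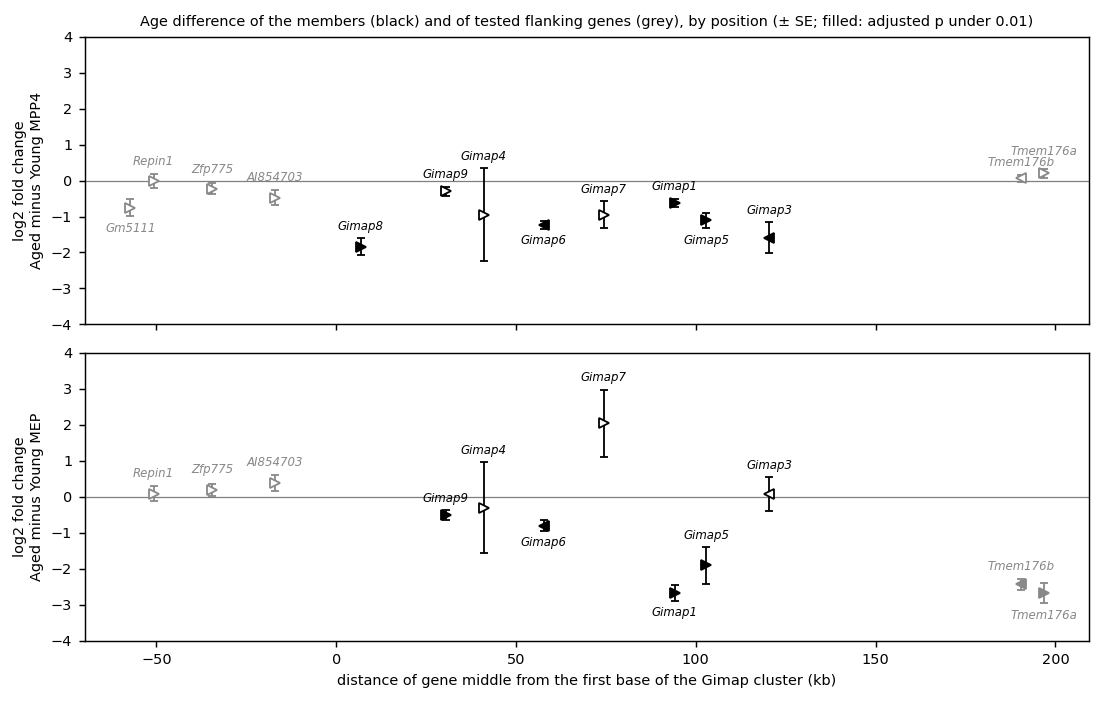
Aged minus Young difference (log2 fold change with its standard error, y axis) in MPP4 (upper panel) and MEPs (lower panel) of the Gimap genes (black) and their tested neighbours (grey) against distance in kb from the start of the cluster (x axis). Triangles point along the strand and filled ones had an adjusted p under 0.01; genes at or under the floor are left out. In MPP4 the Gimap genes called lie between -0.62 and -1.84 and no neighbour is filled, and in MEPs Tmem176b and Tmem176a are filled.

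Sequence shared between transcripts limits how far members can be told apart. Of the 60-base runs of Gimap3, 5.36% also occurred in another transcript, 129 of 135 in Gimap5, and of those of Gimap5 3.07% occurred in Gimap3, so reads from those runs could be assigned to either gene. A further 95 runs of Gimap5 were shared with the readthrough transcript Gm28053. Of 3126 runs of Gimap1, 34.5% were shared, 991 of them with the antisense transcript Gimap1os and 139 with Gm28053. Neither of these was a row of the count table, and no use of strand in counting is stated. In the shared runs, RNA from Gimap1 and Gimap1os therefore cannot be told apart. Gimap4, Gimap6, Gimap8 and Gimap9 shared no run with another transcript, and Gimap7 shared 0.962%.

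Members were compared with each other and with all genes by Pearson's r over the 16 group means of log2 CPM (TMM-scaled, prior count of 2), as a description in which points share a fraction or an age. Gimap5 and Gimap6 were most alike (r = 0.992). Gimap1, Gimap5, Gimap6 and Gimap8 had r of 0.972 to 0.992 with each other, and the lowest r between any members was 0.60, between Gimap4 and Gimap8. Outside the family, the genes most like the mean standardised pattern of the members were Rilpl1 (0.979), Lat (0.976), Etv5 (0.968), Enho (0.965) and Mfsd4 (0.964), where Lat is an adaptor of the T cell receptor. Of the 10 genes most alike over all groups, 2 were also among the 10 over the young means and 5 over the aged means. By Spearman's rank correlation over all groups 2 were shared, and Lat stood at rank 547. The most similar gene to Gimap7 was the T cell kinase Lck (0.942), to Gimap8 the kinase Src (0.992), to Gimap1 Maml2 (0.986), to Gimap3 Gbp9 (0.953) and to Gimap9 Mterf2 (0.947).

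Reported partners of Gimap proteins, with other genes of cell survival and autophagy, formed a list of which 15 were tested. With age edgeR called 0 in HSCs (5.53% of all genes called), and in MPP4 (16.6%) 5 fell and 1 rose. The survival factor Mcl1 fell by 0.94 (adjusted p = 4.81e-08), the autophagy gene Map1lc3a fell by 0.79, and the death effector Bax rose by 0.45. In MEPs (21.0% of genes called) 3 fell and 2 rose, among them Bcl2 (-1.54) and Bcl2l1 (-0.45), both survival factors, and Bax (0.58) and Gabarapl1 (0.55). In CLPs 1 rose and 1 fell, near the 10.7% of all genes called, where no Gimap member was called.

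Other immune GTPases, mostly interferon-inducible Gbp and Irg genes, gave different counts. Of 17 tested, 2 rose (Gbp3 by 0.89 and Igtp by 0.64) and 2 fell (Gbp8 by 1.09 and Gbp6 by 0.89) with age in MPP4, where 16.6% of all genes were called. With age 9 of the 17 rose in GMPs (19.0% of genes called), 11 in MEPs (21.0%) and 9 in CLPs (10.7%), and 0 fell, with Iigp1 at 4.89 in MEPs and at 2.69 in CLPs and Tgtp1 at 1.65 in CLPs. No Gimap gene was called higher with age in these fractions. Of 22 regulators of lymphoid and stem cells, 2 rose in Aged MPP4 (Tcf7 by 2.74 and Klf2 by 1.23) and 2 fell (Meis1 by 0.45 and Foxp1 by 0.39), a count near the share of all genes called there. In Aged HSCs Runx3 rose by 0.91 and Satb1 fell by 1.36, with 5.53% of all genes called. In MEPs, where B lineage markers were also lower and 21.0% of genes were called, 10 of the 22 fell and 2 rose.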

How the data were processed

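Raw gene counts of 32 RNA-seq libraries were used, from 2 libraries for each of 8 fractions and 2 ages. The authors amplified the RNA with an ultra-low-input kit, sequenced single reads of 60 bases without molecular identifiers, aligned them with TopHat2 2.0.13 and Bowtie2 2.1.0 to mm10 and deposited raw counts per gene from StringTie, with 24421 genes. They also deposited normalised values for the same libraries and 8 tables of their own fold changes and p-values, none of which was used here. Groups were taken from the sample labels.

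Counts were fitted with edgeR 4.0.16 in R 4.3.3 (TMM scaling, filterByExpr over 16 groups, robust glmQLFit with 16 residual degrees of freedom, two-sided quasi-likelihood F-tests). P-values were adjusted by Benjamini-Hochberg over all 14154 genes tested, and a gene was called at an adjusted p under 0.01. Libraries of a group varied with a common dispersion of 0.0127 (11.3% as a coefficient of variation). The fit was tested on simulated counts. Duplicates differed by more than sampling noise in all groups (chi-square per degree of freedom 4.83 to 20.2). Alternatives were DESeq2 1.42.0 (Wald test), its size factors in edgeR, no filter, a replicate block, the compared libraries alone, other thresholds, and omission of each library or of the MEP libraries. All 8 members were described; list genes were named as the largest changes among those called, and similar genes by Pearson's r. The members and lists were chosen with earlier results of these data known. Positions are from GENCODE M21, and promoter windows from RefSeq.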

Additional observations from a re-analysis of the deposited data

Results flagged for a closer look

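The effect of age on Gimap6 differed between fractions in 4 tests of the difference itself, of which the 3 that involve MPP4 alone were chosen after the data were seen. Aged minus Young was lower in MPP4 than in HSCs (log2 difference -0.89, SE 0.14) and lower in MPP4 than in MPP1 (-0.85, SE 0.14), the latter call being lost in 7 of 8 omissions of 1 library (adjusted p up to 0.0385). It was higher in CLPs than in MPP4 (1.15, SE 0.14) and higher in CLPs than in the mean of the MPPs (0.60, SE 0.11). Aged Gimap6 was 39.9% of young in MPP4 and 92.9% in CLPs.

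The effect of age on Gimap8 was lower in MPP4 than in HSCs (-1.42, SE 0.31), where aged levels were 26.2% of young in MPP4. This call was lost in 7 of 8 omissions of 1 library (adjusted p up to 0.0551) and in the fit on the compared libraries alone. The effect on Gimap1 was lower in MEPs than in the mean of the MPPs (-2.30, SE 0.23), in libraries whose B lineage sum went from 263 to 274 CPM in Young to 2.31 to 2.64 CPM in Aged MEPs, and the part of those markers in the Gimap1 difference was not tested.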

How the results depend on the processing

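With 2 libraries a group, and the spread pooled over all 32, the number of members called moved in many comparisons. In age effects and their differences between fractions, no member changed direction in a call under any alternative run. Direction was not compared in this way for the steps between fractions. Where numbers moved by over 1.5 times, the count of members called is given, and the cause was not tested. With DESeq2 the age effect called 2 members (HSC), 1 (MPP1), 4 (MPP2), 5 (MPP3) and 2 (CLP), and its differences called 4 (HSC against the MPP mean), 3 (MEP against the MPP mean), 2 (CLP against the MPP mean), 5 (MPP4 against HSC), 4 (MPP4 against MPP1) and 6 (CLP against MPP4). Its young steps called 5 (HSC to MPP1), 3 (MPP1 to MPP2), 1 (MPP1 to MPP3) and 5 (MPP1 to MPP4), and its aged steps 6 (HSC to MPP1), 5 (MPP1 to MPP2), 5 (MPP1 to MPP3) and 7 (MPP4 to CLP). DESeq2 size factors in edgeR moved only the aged step from HSC to MPP1, to 5.

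With a fold change of at least 2 (log2 of 1) required, the age effect called 0 members in MPP2, 1 in MPP3, 3 in MEP and 2 in the MPP mean, the differences 0 (CLP against the MPP mean), 1 (MPP4 against HSC) and 0 (MPP4 against MPP1), the young steps 1 (HSC to MPP1), 0 (MPP1 to MPP2), 1 (MPP1 to MPP4) and 2 (MPP4 to CLP), and the aged steps 1 (HSC to MPP1), 0 (MPP1 to MPP2) and 1 (MPP1 to MPP3). At an adjusted p under 0.05 the age effect called 1 (HSC), 1 (MPP1), 2 (MPP2), 5 (MPP3), 3 (GMP) and 1 (CLP), the differences 3 (MEP against the MPP mean), 2 (MPP4 against MPP1) and 3 (CLP against MPP4), the young steps 4 (HSC to MPP1), 2 (MPP1 to MPP2) and 5 (MPP1 to MPP4), and the aged steps 5 (HSC to MPP1) and 4 (MPP1 to MPP2).

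Fitted on the compared groups alone, the age effect called 3 in MPP1, 6 in MPP2, 0 in GMP and 1 in MEP, the differences 3 (HSC against the MPP mean), 2 (MEP against the MPP mean), 3 (CLP against the MPP mean), 4 (MPP4 against MPP1) and 4 (CLP against MPP4), the young steps 5 (HSC to MPP1), 4 (MPP1 to MPP2) and 5 (MPP1 to MPP4), and the aged step from MPP1 to MPP2 5. Without the 4 MEP libraries, an alternative chosen after seeing the data, counts became 1 (age in MPP1), 5 (young HSC to MPP1), 2 (young MPP1 to MPP2), 5 (aged HSC to MPP1), 4 (aged MPP1 to MPP2), 4 (MPP4 against HSC) and 2 (CLP against MPP4).

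Leaving out 1 library at a time gave 0 members for age in MPP2, 3 to 4 in MPP4, 1 to 2 in GMP and 2 to 4 in MEP. It gave 0 to 2 for the difference of GMP against the MPP mean, 1 to 2 for MEP against the MPP mean, 1 to 2 for MPP4 against HSC and 0 to 1 for MPP4 against MPP1. The young steps gave 1 (HSC to MPP1) and 0 to 1 (MPP1 to MPP4), and the aged steps 1 to 3 (HSC to MPP1), 0 to 1 (MPP1 to MPP2) and 0 to 1 (MPP1 to MPP3). The lone library left in a group was assumed to vary like the other groups.

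Replicate numbers did not pair the libraries: deviations of same-numbered libraries within a fraction correlated at -0.056 to 0.070. A replicate block gave 3 members in place of 2 for the young step from HSC to MPP1 and 4 in place of 3 for the aged step, and changed no other count. Low counts limit what can be read for Gimap3, Gimap4, Gimap5, Gimap7 and Gimap8 in GMPs and for Gimap5, Gimap7 and Gimap8 in MEPs.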
